A study of Mus musculus with 6 samples.

Results

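The TGF-beta ligands, their receptors and the Smad proteins that carry their signal were followed in left ventricles of *Kdm3a*-Tg (Tg) and wild-type (WT) mice. The members were 10 genes taken by symbol: the ligands *Tgfb1*, *Tgfb2* and *Tgfb3*, the receptors *Tgfbr1*, *Tgfbr2* and *Tgfbr3*, and *Smad2*, *Smad3*, *Smad4* and *Smad7*. Of these, 9 had an annotated probe on the Illumina bead array and 8 had a probe with signal above background. Together they held 17 of the 45281 probes, of which 11 were among the 17014 probes detected on at least 2 arrays (detection p below 0.01) and entered the tests.

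By the labels, the 6 arrays each held left ventricular RNA of 1 mouse with an animal number of its own. The sample titles name heart. The study's text shows expression in Tg and WT TAC hearts, and it also describes arrays of heart muscle cells isolated from such hearts. It does not say which of these the present arrays are. The groups were 2 Tg TAC, 2 WT TAC, 1 Tg Sham and 1 WT Sham. All mice were males on the c57/BL6 background, operated on at an age of 6 to 8 weeks and sampled 3 weeks later by the labels, whereas the study's text gives a longer time. Transverse aortic constriction (TAC) narrows the aortic arch and loads the left ventricle with pressure, and sham mice had the same operation without the band. Tg mice carried a Flag-tagged mouse *Kdm3a* cDNA, encoding a histone H3 lysine 9 demethylase, under the α-MHC promoter, which drives expression in heart muscle cells. The study used more than 1 transgenic line, and the labels do not name the line of these mice.

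TGF-beta ligands are secreted in a latent form and are released by proteases and integrins in the extracellular matrix. Active ligand brings together the type II receptor *Tgfbr2* and the type I receptor *Tgfbr1*, both kinases, and the type I receptor phosphorylates Smad2 and Smad3, which enter the nucleus with Smad4. In the pressure-loaded heart this pathway is known for turning fibroblasts into matrix-producing cells.

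Values below are background-corrected, quantile-normalized log2 intensities, and gene levels are compared between arrays for 1 probe, never between probes. The level of a marker list instead sums the linear intensities of its genes, so it mainly follows the brightest of them. Between 15643 and 16492 probes were detected per array, and the number of arrays limits the precision. The *Kdm3a* probe ILMN_3118169 had raw intensities of 34642 and 33540 in Tg TAC and 30614 and 229 in WT TAC, against 247 in Tg Sham and 341 in WT Sham. In this probe the library labelled WT TAC replicate 1 went with the Tg TAC libraries, and that labelled Tg Sham went with the others. Of 3 further *Kdm3a* probes, 1 was detected on no array and 2 on all 6. Those 2 lacked this step (392 to 755 for ILMN_2707895 and 238 to 301 for ILMN_3043245). They were not raised in Tg TAC either (497 and 392, and 246 and 238), so they cannot speak to the labels. The doubt about the libraries labelled WT TAC replicate 1 and Tg Sham rests on ILMN_3118169 alone. Labels were kept. Values without the 2 libraries are also given for the members in Tg TAC against WT TAC, for the ligand ratios and for several genes of the pathway, whereas Tg TAC against Tg Sham and the difference between the TAC responses cannot be had without them. Of 10 ventricular cardiomyocyte markers 9 were measured, with a summed log2 level of 17.62 to 17.81 over the arrays. Fibroblast markers (7 of 8 measured, *Postn* not detected) summed to 14.36 and 14.03 in Tg TAC and 14.50 and 14.05 in WT TAC, against 14.09 in Tg Sham and 14.42 in WT Sham. In RNA of mixed cells, fewer cells of a type and less RNA per cell cannot be told apart.

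The 3 ligands did not move together: *Tgfb2* and *Tgfb3* were brightest in the Tg TAC group, while *Tgfb1* was dimmest there. In Tg TAC, *Tgfb1* lay 0.66 ± 0.27 (SE) below WT TAC on the log2 scale, and *Tgfb2* and *Tgfb3* lay 0.50 ± 0.44 and 0.71 ± 0.39 above it. None of the 3 differences passed the test across all probes (limma adjusted p = 0.64, 0.79 and 0.69). With the replicate number (1 or 2) as a block in the fit, limma adjusted p was 0.067, 0.25 and 0.067, with 1 residual degree of freedom.

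*Tgfb1* encodes the most widely expressed ligand, which platelets also store and release. Its probe ILMN_2711461 was detected on all 6 arrays and read 8.09 and 7.56 in Tg TAC and 8.69 and 8.27 in WT TAC, against 8.30 in Tg Sham and 8.60 in WT Sham. Both Tg TAC arrays were below every other array. The Tg TAC mean was 7.82 ± 0.37 (SD, n = 2) and the WT TAC mean 8.48 ± 0.30 (SD, n = 2), a 1.58-fold lower level in Tg TAC with a 95% interval of the log2 difference from -1.33 to 0.01. With both doubtful libraries left out (those labelled WT TAC replicate 1 and Tg Sham), the difference was -0.44 ± 0.32. Over both surgeries *Tgfb1* was 0.54 ± 0.21 lower in Tg than in WT (unadjusted p = 0.034 and adjusted p = 0.29, both from limma). In platelet markers (*Pf4*, *Ppbp* and *Gp9*, 3 of 4 measured) both Tg TAC arrays were lowest as well. The summed log2 level of these markers was 9.15 and 9.0 in Tg TAC and 10.10 and 9.84 in WT TAC, against 9.29 in Tg Sham and 9.68 in WT Sham. WT TAC replicate 2 stood above WT Sham there, and below it for *Tgfb1*. The fibroblast list also had WT TAC replicate 1 and WT Sham highest and Tg TAC replicate 2 lowest, as *Tgfb1* did. The part of platelets or fibroblasts in the *Tgfb1* values was not tested.

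*Tgfb2* encodes a ligand that the embryonic heart uses in valve formation. Its probe ILMN_1225196 read 8.07 and 6.86 in Tg TAC and 7.23 and 6.71 in WT TAC, against 6.84 in Tg Sham and 6.40 in WT Sham. Replicate 1 of Tg TAC was the highest array, followed by the library labelled WT TAC replicate 1, and the other Tg TAC array lay between the WT TAC arrays. The Tg TAC mean was 7.46 ± 0.86 (SD, n = 2) and the WT TAC mean 6.97 ± 0.37 (SD, n = 2). The spread within Tg TAC therefore exceeded the difference between the groups. With Tg TAC replicate 1 left out, the difference between Tg TAC and WT TAC was -0.11 in place of 0.50. With both doubtful libraries left out it was 0.76 ± 0.52 (limma adjusted p = 0.86).

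*Tgfb3*, the remaining ligand, is known for its role in palate closure and is also made in heart muscle and connective tissue. Its probe ILMN_2748966 read 8.83 and 7.92 in Tg TAC and 8.02 and 7.30 in WT TAC, against 7.36 in Tg Sham and 7.43 in WT Sham. The highest 3 arrays were the same as for *Tgfb2*, where Tg TAC replicate 2 was barely above Tg Sham (6.86 against 6.84). For *Tgfb3*, Tg TAC replicate 2 fell just under the library labelled WT TAC replicate 1, so the TAC groups overlapped. The same 3 arrays were highest in 3 marker lists. The ventricular cardiomyocyte, fibroblast, macrophage, endothelial, platelet and red cell lists had other arrays among their highest 3, and no adipocyte marker was measured. These sums mainly follow the brightest genes and can hide others. *Col1a2* of the fibroblast list had the same 3 arrays highest (8.39 and 7.25 in Tg TAC and 7.76 in WT TAC replicate 1). Smooth muscle and pericyte markers (6 of 7 measured, *Cnn1* not detected) summed to 13.18 and 13.38 in Tg TAC and 13.47 and 12.30 in WT TAC, against 12.93 in Tg Sham and 12.60 in WT Sham. Most of this sum came from *Acta2* (12.98 and 13.23 in Tg TAC), while *Tagln* of the same list was not above background in either Tg TAC array. The atrial light chain *Myl4*, the only one of 4 atrial markers measured, read 9.05 and 8.71 in Tg TAC and 8.41 and 6.75 in WT TAC, against 7.38 in Tg Sham and 7.10 in WT Sham. Mesothelial markers (3 of 4 measured) summed to 8.01 and 7.93 in Tg TAC and 8.21 and 7.34 in WT TAC, against 6.02 in Tg Sham and 7.88 in WT Sham. Their part in the *Tgfb2* and *Tgfb3* values was not tested. For *Tgfb3* the Tg TAC mean was 8.37 ± 0.64 (SD, n = 2) and the WT TAC mean 7.66 ± 0.51 (SD, n = 2), a 1.64-fold higher level in Tg TAC. Left-out arrays moved the log2 difference between 0.26 (without Tg TAC replicate 1) and 1.16 (without Tg TAC replicate 2). With both doubtful libraries left out it was 1.07 ± 0.42, against 1 WT TAC array and with a spread from the Tg TAC arrays alone.

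**Figure D1:**
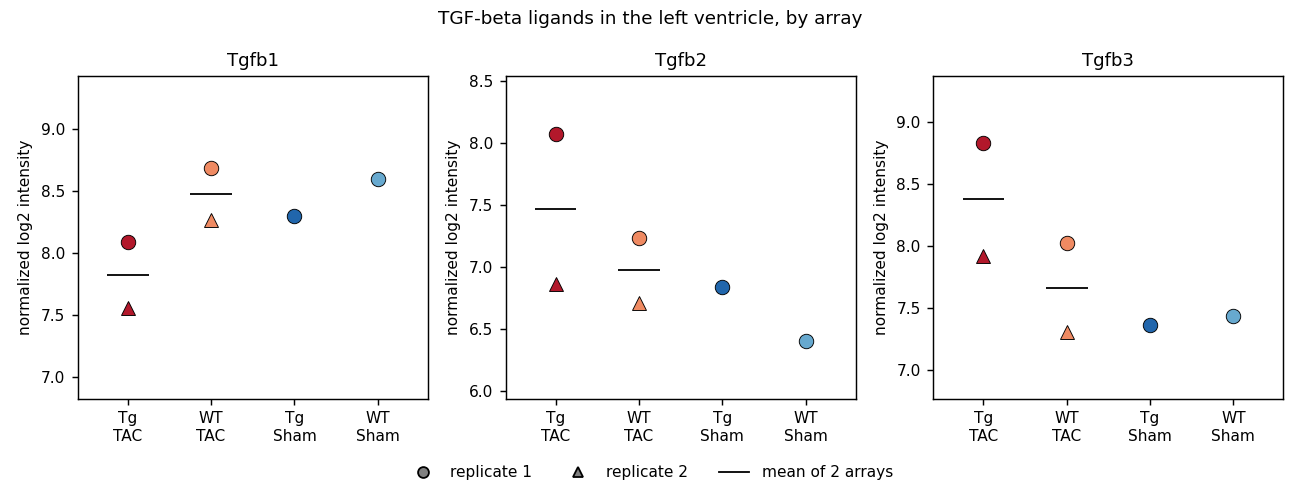
Normalized log2 intensity (y axis) of the 3 ligands in each array, by group (x axis); circles are replicate 1, triangles replicate 2, and bars the mean of 2 arrays. Each panel has its own level but the same span, and the Tg TAC arrays are the lowest 2 for Tgfb1 (8.09 and 7.56), whereas Tg TAC replicate 1 is the highest array for Tgfb2 (8.07) and Tgfb3 (8.83).

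Against sham, the ligands again went different ways. In Tg mice, *Tgfb3* was 1.01 ± 0.48 higher in Tg TAC than in Tg Sham (2.01-fold), *Tgfb2* 0.62 ± 0.53 higher and *Tgfb1* 0.48 ± 0.33 lower. Both Tg TAC arrays lay on the same side of the Tg Sham array for each ligand, as for 63.8% of all probes. For *Tgfb2* the margin was small, with 6.86 in Tg TAC replicate 2 against 6.84 in Tg Sham. In WT mice, *Tgfb2* was 0.57 ± 0.53 higher in WT TAC than in WT Sham, while *Tgfb3* (0.23 ± 0.48) and *Tgfb1* (-0.12 ± 0.33) had WT TAC arrays on both sides of the sham array. In the 4 arrays without the doubtful libraries, *Tgfb3* was -0.13 ± 0.49 and *Tgfb2* 0.31 ± 0.61 in WT TAC against WT Sham, and Tg TAC against Tg Sham could not be computed. Over both genotypes, TAC exceeded Sham by 0.60 ± 0.34 for *Tgfb2* and by 0.62 ± 0.34 for *Tgfb3* (limma adjusted p = 0.77 each), while *Tgfb1* was 0.30 ± 0.22 lower (adjusted p = 0.81). By their animal numbers both sham mice belong to the same series as replicate 1 of each TAC group. With that replicate alone, TAC exceeded Sham by 1.23 in Tg and 0.83 in WT for *Tgfb2*, and by 1.46 in Tg and 0.59 in WT for *Tgfb3*, with 1 array a side and no test. The TAC response of *Tgfb3* was 0.78 ± 0.67 larger in Tg than in WT, with a 95% interval from -0.88 to 2.44. The sham pair itself, with 1 array a side and no test, differed by -0.30 for *Tgfb1*, 0.44 for *Tgfb2* and -0.07 for *Tgfb3* (Tg Sham minus WT Sham).

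The ligands were then set against each other within each array, as the log2 ratio of 2 ligands less its mean over the 6 arrays, which shows unequal change and no absolute level. *Tgfb3* over *Tgfb1* was 1.18 and 0.80 in Tg TAC and -0.23 and -0.53 in WT TAC, against -0.49 in Tg Sham and -0.73 in WT Sham. Both Tg TAC arrays stood above the remaining 4. *Tgfb2* over *Tgfb1* was 1.22 and 0.54 in Tg TAC and -0.23 and -0.33 in WT TAC, against -0.22 in Tg Sham and -0.97 in WT Sham. For this ratio all 3 Tg arrays exceeded all 3 WT arrays, by 1.02 on average, and the Tg Sham array (-0.22) lay next to the highest WT array (-0.23). The two-sided exact permutation p was 0.1, the smallest that 3 against 3 arrays can give, and 0.5 after Benjamini-Hochberg adjustment over the 9 ratio tests. Tg TAC against WT TAC differed by 1.37 for *Tgfb3* over *Tgfb1* and by 1.16 for *Tgfb2* over *Tgfb1*, where 2 against 2 arrays cannot go below an exact permutation p of 0.33. Without the doubtful libraries these differences were 1.52 and 1.20, against 1 WT TAC array.

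*Tgfb3* over *Tgfb2* stayed near its mean on every array: -0.04 and 0.27 in Tg TAC and 0.00 and -0.20 in WT TAC, against -0.27 in Tg Sham and 0.24 in WT Sham. The groups overlapped in this ratio, with a difference between Tg and WT of -0.03 (exact permutation p = 0.8). Across the 6 arrays the log2 intensities of *Tgfb2* and *Tgfb3* had a Pearson r of 0.93 (Spearman rho 0.83), and r was 0.71 without Tg TAC replicate 1. As a description of the same 6 arrays, 112 of 9576 other named genes (1.17%) had an r with *Tgfb2* at least as high. *Tgfb1* had an r of -0.17 with *Tgfb2* and -0.26 with *Tgfb3*.

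**Figure D2:**
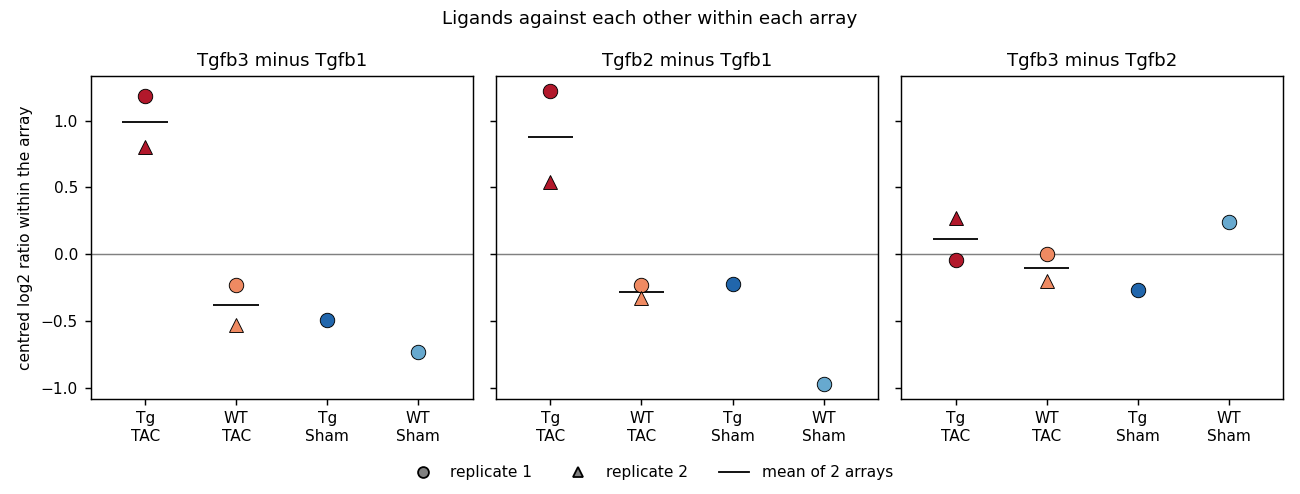
Log2 ratio of 2 ligands within each array, centred on its mean over the 6 arrays (y axis), by group (x axis); circles are replicate 1, triangles replicate 2, and bars the mean of 2 arrays. The Tg TAC arrays are above the other arrays for Tgfb3 over Tgfb1 (1.18 and 0.80) and for Tgfb2 over Tgfb1 (1.22 and 0.54), and all arrays lie between -0.27 and 0.27 for Tgfb3 over Tgfb2.

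**Figure D3:**
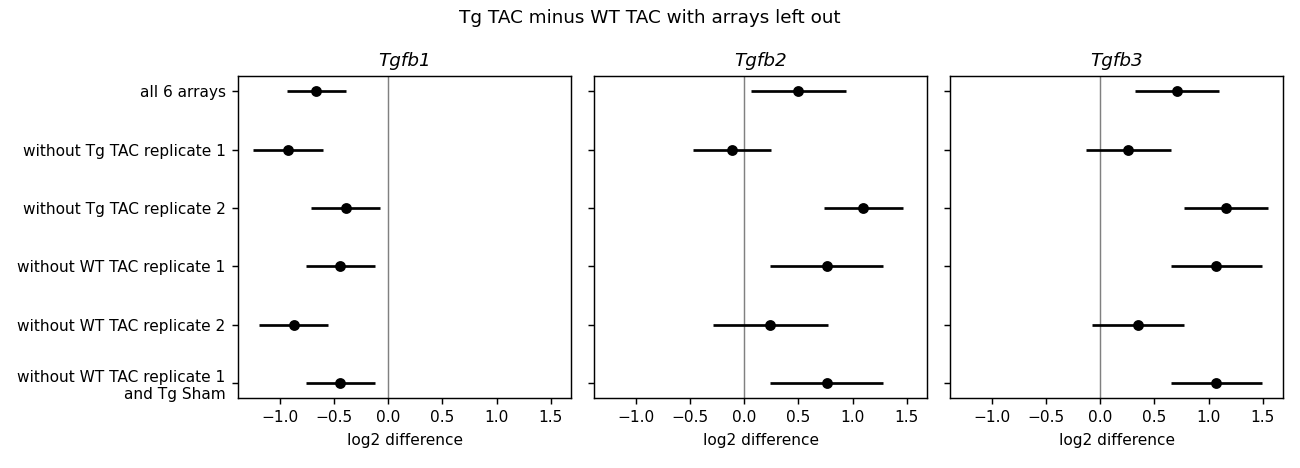
Fitted log2 difference of Tg TAC minus WT TAC (x axis) for each ligand with all 6 arrays and with arrays left out (rows); points are the difference and bars its SE. Tgfb1 stays below 0 (-0.92 to -0.39) and Tgfb3 above 0 (0.26 to 1.16), while Tgfb2 falls to -0.11 without Tg TAC replicate 1.

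The promoters of *Tgfb1* and *Tgfb2* are shown because these are the ligands for which a promoter entry was matched. A link between their letters and the probe values was not tested. Each line holds the 250 bases before the transcription start in RefSeq (GRCm38.p6), 5′ to 3′ on the gene's strand, from chr7:25686752-25687001 (plus strand) for *Tgfb1* and chr1:186705990-186706239 (minus strand) for *Tgfb2*. Capitals mark matches, on either strand, to the TATA box (TATAAA), the GC box (GGGCGG), the Smad box (CAGAC), the cAMP response element (TGACGTCA) and the AP-1 site (TGANTCA). No match overlapped another.
Tgfb1: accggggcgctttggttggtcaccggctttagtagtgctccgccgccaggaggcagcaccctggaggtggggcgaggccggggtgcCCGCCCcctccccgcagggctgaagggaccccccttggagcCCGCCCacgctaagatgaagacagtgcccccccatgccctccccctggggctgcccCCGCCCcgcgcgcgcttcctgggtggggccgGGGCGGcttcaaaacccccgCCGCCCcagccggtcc
Tgfb2: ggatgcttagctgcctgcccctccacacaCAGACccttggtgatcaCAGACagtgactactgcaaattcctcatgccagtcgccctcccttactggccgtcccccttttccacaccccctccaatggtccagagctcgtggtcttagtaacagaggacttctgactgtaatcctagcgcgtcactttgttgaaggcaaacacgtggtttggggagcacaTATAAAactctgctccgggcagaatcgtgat
The *Tgfb1* window had 75.2% G and C and 5 GC boxes, at positions -164, -123, -67, -36 and -16 from the start, with no other match. The *Tgfb2* window had 53.6% G and C, a TATA box at -31 and Smad boxes at -221 and -204, with no GC box. Of 32851 mouse promoter windows of the same length, 32.7% held a GC box, 12.4% a TATA box, 42.2% a Smad box, 1.55% a cAMP response element and 6.75% an AP-1 site. Matches are letters in these windows and were not tested as binding sites. RefSeq also holds a *Tgfb2* model that starts further upstream. A promoter entry was matched for 5 of the 10 members, and *Tgfb3* was not among them.

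The fitted differences of the receptors in Tg TAC against WT TAC were smaller than those of the ligands, a contrast between genes that was not tested. *Tgfbr1* probe ILMN_2602711 read 10.01 and 9.29 in Tg TAC and 9.87 and 9.73 in WT TAC, against 9.58 in Tg Sham and 9.69 in WT Sham. The Tg TAC arrays were its highest and lowest, with Tg TAC 0.15 ± 0.27 below WT TAC. *Tgfbr2* probe ILMN_2760979 read 11.20 and 10.46 in Tg TAC and 11.11 and 10.44 in WT TAC, against 10.48 in Tg Sham and 10.62 in WT Sham. Here the first replicate was high and the other low in both genotypes under TAC, and the fitted difference was 0.06 ± 0.33.

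*Tgfbr3* encodes betaglycan, a co-receptor without a kinase that presents ligand, TGF-beta2 above all, to *Tgfbr2*. Its probe ILMN_2789239 read 8.96 and 9.65 in Tg TAC and 8.97 and 9.48 in WT TAC, against 8.98 in Tg Sham and 8.86 in WT Sham. The replicate order was the reverse of that of *Tgfbr2*, and Tg TAC differed from WT TAC by 0.08 ± 0.31. Over both genotypes TAC exceeded Sham by 0.35 ± 0.24 for *Tgfbr3*, 0.26 ± 0.26 for *Tgfbr2* and 0.09 ± 0.21 for *Tgfbr1*, none past the threshold (limma adjusted p = 0.80, 0.86 and 0.95). In the 4 arrays without the doubtful libraries, Tg TAC differed from WT TAC by -0.18 ± 0.35 for *Tgfbr3*, 0.39 ± 0.35 for *Tgfbr2* and -0.09 ± 0.35 for *Tgfbr1*. There WT TAC differed from WT Sham by 0.62 ± 0.40 for *Tgfbr3*, -0.18 ± 0.41 for *Tgfbr2* and 0.04 ± 0.41 for *Tgfbr1*.

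Further probes of the receptors were at or near background. *Tgfbr1* probe ILMN_2980532 was detected only in the first replicates of Tg TAC and WT TAC, and *Tgfbr3* probe ILMN_2606601 only in Tg TAC replicate 1 and WT Sham. Their log2 levels spanned 0.61 and 0.60 over the 6 arrays. In TAC against Sham ILMN_2606601 differed by -0.28 ± 0.22, opposite in sign to the brighter *Tgfbr3* probe. The other *Tgfbr1* probes (ILMN_2708965 and ILMN_1214505) and *Tgfbr2* probes (ILMN_1215171, ILMN_1242086 and ILMN_2777917) were detected on no array. Each receptor therefore rested on a single well-measured probe.

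Smad2 and Smad3, the receptor-activated Smads, were both measured. *Smad2* probe ILMN_1228414 read 7.33 and 7.60 in Tg TAC and 7.70 and 7.77 in WT TAC, against 7.40 in Tg Sham and 7.79 in WT Sham. All 3 Tg arrays were below all 3 WT arrays, within a total range of 0.45. The fit gave 0.26 ± 0.21 lower in Tg TAC than in WT TAC and 0.30 ± 0.15 lower in Tg than in WT over both surgeries (limma adjusted p = 0.77 and 0.39). With both doubtful libraries left out, Tg TAC and WT TAC differed by -0.30 ± 0.28.

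*Smad3* had 2 probes detected on all 6 arrays. ILMN_2938893 read 7.05 and 7.69 in Tg TAC and 6.76 and 7.01 in WT TAC, against 7.24 in Tg Sham and 6.53 in WT Sham. All 3 Tg arrays exceeded all 3 WT arrays, by 0.56 ± 0.21 in the fit over both surgeries (limma unadjusted p = 0.032 and adjusted p = 0.29) and by 0.48 ± 0.28 in Tg TAC against WT TAC. The brighter probe ILMN_2772582 read 8.70 and 8.88 in Tg TAC and 8.65 and 8.75 in WT TAC, against 8.73 in Tg Sham and 8.24 in WT Sham. On that probe the TAC arrays overlapped and Tg exceeded WT by 0.22 ± 0.15, with 0.49 in the sham pair and 0.09 ± 0.19 in the TAC groups. The probes thus shared a sign and differed in size. Without the doubtful libraries they gave 0.35 ± 0.36 and 0.04 ± 0.25 in Tg TAC against WT TAC.

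*Smad7*, the inhibitory Smad that TGF-beta itself induces, had 1 probe (ILMN_2759660), which was detected on no array, with detection p between 0.36 and 0.96, so no level is given. *Smad4*, the shared partner of Smad2 and Smad3, had no probe annotated to its symbol.

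**Figure D4:**
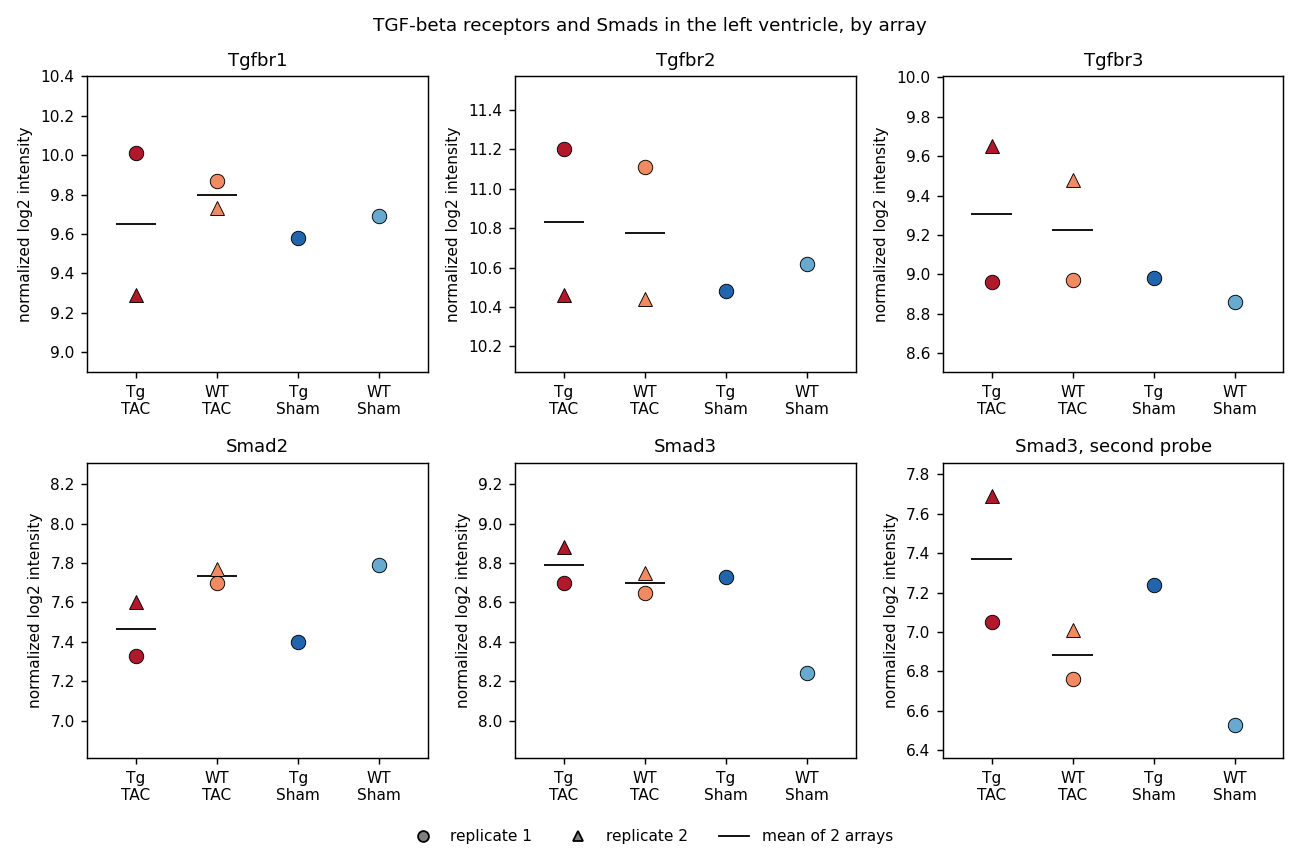
Normalized log2 intensity (y axis) of the receptors, Smad2 and both Smad3 probes in each array, by group (x axis); circles are replicate 1, triangles replicate 2, and bars the mean of 2 arrays. Each panel has its own level but the same span. Tgfbr2 shows replicate 1 above replicate 2 in Tg TAC (11.20 and 10.46) and in WT TAC (11.11 and 10.44), and the Tg arrays lie below the WT arrays for Smad2 and above them for the Smad3 probe ILMN_2938893, titled second probe.

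Replicates under TAC differed in the same direction in Tg and WT for most members. Replicate 1 exceeded replicate 2 in both genotypes for 6 of the 11 tested probes, among them every ligand, *Tgfbr1* and *Tgfbr2*. Replicate 2 was the higher in both for 4, which were *Tgfbr3* probe ILMN_2789239, *Smad2* and both *Smad3* probes. The near-background *Tgfbr3* probe ILMN_2606601 was among the 6 with replicate 1 higher. Over all 17014 probes these shares were 31.6% and 34.8%. For *Tgfb3*, replicate 1 exceeded replicate 2 by 0.90 among Tg TAC arrays and by 0.72 among WT TAC arrays, as large as the difference between the groups.

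Counted over all members, limma called 0 of the 11 probes in Tg TAC against WT TAC, where 0% of all 17014 probes were called and 1321 (7.76%) had an unadjusted p below 0.05, none of them a member. Groups did not overlap for 3 of the 11 (*Tgfb1* and *Smad2* lower, *Smad3* ILMN_2938893 higher), against 39.8% of all probes. In Tg against WT over both surgeries 0 were called (0% of all probes), 2 had an unadjusted p below 0.05 against 2562 (15.1%) of all probes, and 2 did not overlap against 18.9%. These shares lie near or below those of all probes. In TAC against Sham 0 were called (0% of all probes; 1109, or 6.52%, had an unadjusted p below 0.05, none a member) and 0 did not overlap, against 10.9%.

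Against a single sham array, 8 of 11 probes did not overlap in WT TAC against WT Sham (60.6% of all probes) and 4 in Tg TAC against Tg Sham (63.8%). Both comparisons and the test of the difference between the TAC responses had 0 calls among the members and 0% over all probes, with 371 (2.18%), 492 (2.89%) and 166 (0.976%) of all probes at an unadjusted p below 0.05, none a member. The median difference of the 8 measured genes was 0.07 in Tg TAC against WT TAC, 0.19 in WT TAC against WT Sham, 0.20 in Tg TAC against Tg Sham and 0.26 in TAC against Sham. Over 9577 named genes the medians were 0.01, 0.04, 0.01 and 0.03.

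**Figure D5:**
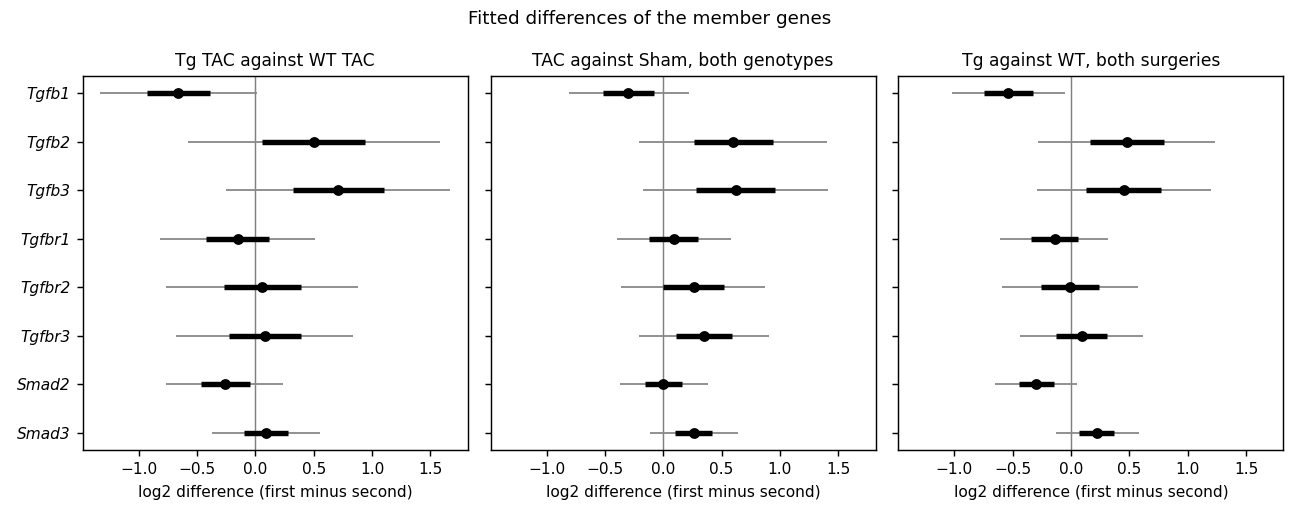
Fitted log2 difference (x axis, group named first minus the other) of the brightest detected probe of each measured member (rows) in 3 comparisons; points are the difference, thick bars its SE and thin lines the 95% interval. In Tg TAC against WT TAC the ligands spread from -0.66 (Tgfb1) to 0.71 (Tgfb3), while the receptors lie between -0.15 and 0.08.

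Genes around the members were counted from 4 lists, of which the last shares genes with the others, and limma called 0 of them in every comparison. Of 16 genes that store or activate latent ligand, 10 were measured, and 9 were higher in TAC than in Sham (median 0.22, against 0.03 and 55.0% higher over all genes). *Itgb5*, an integrin subunit that binds latent TGF-beta, read 10.86 and 10.29 in Tg TAC and 9.92 and 9.71 in WT TAC, against 10.01 in Tg Sham and 9.48 in WT Sham. Both Tg TAC arrays exceeded all the others, with a difference from WT TAC of 0.76 ± 0.24 (limma adjusted p = 0.64). *Ltbp1*, which tethers the latent complex to matrix, read 7.67 and 8.29 in Tg TAC and 7.44 and 7.88 in WT TAC, against 7.37 in Tg Sham and 7.08 in WT Sham. All 4 TAC arrays exceeded both sham arrays, by 0.59 ± 0.23 (limma adjusted p = 0.75). TAC and Sham did not overlap for 10.9% of all probes, and Tg TAC and WT TAC for 39.8%. The genes named from the lists were picked for a small p. Without the doubtful libraries *Itgb5* differed by 0.86 ± 0.31 in Tg TAC against WT TAC, and *Ltbp1* by 0.80 ± 0.40 in WT TAC against WT Sham. *Furin*, a protease that cleaves the ligand precursor, was 0.26 ± 0.17 lower in Tg TAC than in WT TAC. Further differences there were -0.40 ± 0.30 for the integrin subunit *Itgb6* and 0.35 ± 0.25 for *Nrros*. In TAC against Sham they were 0.45 ± 0.19 for *Itgb5*, 0.40 ± 0.25 for *Ltbp3* and 0.29 ± 0.19 for *Itgb1*.

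Of 27 other ligands, receptors and antagonists of the superfamily and related genes, 13 were measured. Of these 13, 9 were higher in TAC than in Sham (median 0.14, against 0.03 and 55.0% higher over all genes). *Bmp1*, a protease that processes procollagen and is not a growth factor despite its name, read 9.36 and 9.10 in Tg TAC and 8.66 and 8.12 in WT TAC, against 8.43 in Tg Sham and 7.85 in WT Sham. Both Tg TAC arrays were above every other array, with differences of 0.84 ± 0.25 in Tg TAC against WT TAC and 0.67 ± 0.20 in TAC against Sham (limma adjusted p = 0.64 and 0.75). Without the doubtful libraries *Bmp1* differed by 1.11 ± 0.26 in Tg TAC against WT TAC and by 0.28 ± 0.30 in WT TAC against WT Sham. *Chrd*, an extracellular BMP antagonist, was 0.47 ± 0.33 higher in Tg TAC than in WT TAC and 0.56 ± 0.26 higher in TAC than in Sham, and its 4 TAC arrays exceeded both sham arrays. Without the doubtful libraries *Chrd* differed by 0.43 ± 0.43 in Tg TAC against WT TAC and by 0.50 ± 0.49 in WT TAC against WT Sham. The ligand *Bmp6* and the receptor *Bmpr2* also had all TAC arrays above both sham arrays, by 0.46 ± 0.19 and 0.22 ± 0.12, none past the threshold. These genes were picked for a small p in this comparison, where 10.9% of all probes did not overlap. *Bmp1* and *Chrd* were also picked for a small p in Tg TAC against WT TAC, where 39.8% of all probes did not overlap. In Tg TAC against WT TAC *Bmp6* differed by 0.19 ± 0.23 and the receptor *Bmpr1a* by 0.19 ± 0.25.

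Of 19 other Smads and regulators 14 were measured, with 5 higher and 9 lower in either of these comparisons. Over all genes 55.0% were higher in TAC against Sham and 51.2% in Tg TAC against WT TAC. *Smad6*, the other inhibitory Smad, was 0.33 ± 0.27 lower in TAC than in Sham. *Eng*, an endothelial co-receptor, *Smad1*, which carries BMP signals, and the repressor *Ski* lay 0.34 ± 0.25, 0.38 ± 0.31 and 0.24 ± 0.26 lower in Tg TAC than in WT TAC. *Tgfbrap1*, which associates with the receptors, was 0.29 ± 0.17 higher there, with both Tg TAC arrays (9.81 and 9.91) above both WT TAC arrays (9.64 and 9.51). Tg TAC and WT TAC did not overlap for 39.8% of all probes. *Tgfbrap1* was also 0.18 ± 0.13 higher in TAC than in Sham. The Smad anchor *Zfyve9* and the endothelial receptor *Acvrl1* were 0.24 ± 0.20 and 0.23 ± 0.22 higher in TAC than in Sham.

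Of 23 genes known to be induced by TGF-beta 18 were measured. In TAC against Sham 12 were higher (median 0.27), in WT TAC against WT Sham 10 (median 0.09) and in Tg against WT 8 (median -0.06). Over all genes 55.0%, 56.6% and 53.2% were higher in these comparisons. The TAC response was larger in Tg than in WT for 14 of the 18 (median 0.21), against 47.2% of all genes. That median ranged from -0.34 to 0.82 with single arrays left out. In Tg TAC against Tg Sham 13 were higher (median 0.50, against 0.01 and 51.6% higher over all genes), but without Tg TAC replicate 1 the median was -0.06. In Tg TAC against WT TAC 10 were higher (median 0.04, with 51.2% of all genes higher), and the median was 0.58 with both doubtful libraries left out. *Timp1*, an inhibitor of matrix proteases, read 10.17 and 7.94 in Tg TAC and 9.46 and 6.42 in WT TAC, against 7.22 in Tg Sham and 7.10 in WT Sham. As for *Tgfb2* and *Tgfb3*, both Tg TAC arrays and the library labelled WT TAC replicate 1 were the highest 3. *Col1a2*, a fibrillar collagen chain, read 8.39 and 7.25 in Tg TAC and 7.76 and 6.56 in WT TAC, against 7.05 in Tg Sham and 6.61 in WT Sham, with the same 3 arrays highest. TAC exceeded Sham by 1.34 ± 0.90 for *Timp1* and 0.66 ± 0.41 for *Col1a2* (limma adjusted p = 0.80 and 0.79). In that comparison *Col3a1* and *Acta2*, a further collagen and smooth muscle actin, differed by 0.70 ± 0.50 and 0.47 ± 0.36. With both doubtful libraries left out, WT TAC differed from WT Sham by -0.67 ± 1.00 for *Timp1* and -0.05 ± 0.57 for *Col1a2*, and Tg TAC from WT TAC by 2.64 ± 0.86 and 1.26 ± 0.50 (limma adjusted p = 0.83 and 0.84). On all arrays, *Acta2* was 0.60 ± 0.46 higher and *Id1* 0.38 ± 0.24 lower in Tg TAC than in WT TAC. *Tagln*, a smooth muscle gene, was detected in WT TAC replicate 1 and both sham arrays and not above background in either Tg TAC array, so no difference is given. *Comp*, a matrix glycoprotein, was detected only in replicate 1 of Tg TAC and of WT TAC, with 8.69 in Tg TAC replicate 1 and between 4.86 and 5.63 on the other 5 arrays.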

How the data were processed

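The authors deposited linear bead-array intensity per probe, without normalization, and a detection p-value for every probe on every array. The submitters' processing notes give GenomeStudio 2011.1. A quantile-normalized intensity table, also by the authors, served as an alternative. The platform annotation gave 34885 of the 45281 probes 1 symbol, 18 several and 10378 none.

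The analysis used R 4.3.3 and limma 3.58.1. The normexp background model, with negative controls inferred from the detection p, was followed by an offset of 16, quantile normalization and log2. A probe was kept if its detection p was below 0.01 on 2 or more arrays (17014 probes). Group means (2 residual degrees of freedom) and additive models of genotype and surgery (3) were fitted with lmFit and moderated by eBayes along an intensity trend, and p-values were adjusted by Benjamini-Hochberg over all kept probes at a threshold of 0.05. Each sham group is 1 array, taken to vary as the TAC groups do. Where a gene had several detected probes, the brightest led. Intervals are 95%. The fits were tested on simulated data.

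The text names all members, up to 4 genes per list with the smallest p in Tg TAC against WT TAC and in TAC against Sham, and the named genes most and least correlated with each ligand. Members, lists and rules were chosen with earlier results of these data known. Alternatives changed the background correction, scaling, offset, filter, probes per gene, table, test, replicate block and arrays.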

Additional observations from a re-analysis of the deposited data

How the results depend on the processing

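The main fits left 2 or 3 residual degrees of freedom, and each sham group was 1 array, so only differences much larger than the replicate spread could pass. Fits of the group means with the replicate block, or without 1 array, left 1 residual degree of freedom. Without both doubtful libraries, Tg TAC was the only group with replicates, so its 2 arrays alone gave the spread. The methods' t-test of Tg TAC against WT TAC gave 0 member probes below the methods' threshold, and none after Benjamini-Hochberg adjustment, with 1295 of all probes below the threshold unadjusted and 0 adjusted. No member was called under any alternative except the replicate block. Directions of *Tgfb1*, *Tgfb3*, *Smad2* and *Smad3* in Tg TAC against WT TAC held under every setting tried, apart from *Smad3* under median scaling (-0.05) and at 0.00 without Tg TAC replicate 2.

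Median scaling moved the median of all genes to -0.12 in Tg TAC against WT TAC and to -0.15 in Tg against WT. Under it *Tgfbr2* was -0.10 and *Tgfbr3* -0.05 in Tg TAC against WT TAC (0.03 and 0.07 relative to that median), *Tgfbr3* was -0.09 in Tg against WT, and the responses of *Tgfbr1* and *Tgfbr3* (Tg minus WT) were 0.07 and 0.10. The median of the other superfamily genes became -0.05 in Tg against WT and 0.26 for the difference between the TAC responses. The Tg against WT difference of *Tgfb3* over *Tgfb2* was 0.04 with no background correction and 0.04 in the authors' normalized table. Without the detection filter 4 probes were called in Tg against WT.

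With the libraries labelled WT TAC replicate 1 and Tg Sham both left out, 2 probes were called in Tg TAC against WT TAC and in Tg against WT, *Tgfbr3* was -0.18 in both, and *Tgfbr2* was 0.39 in Tg against WT. In WT TAC against WT Sham, which is then also TAC against Sham, *Tgfb3* was -0.13, *Tgfbr2* -0.18, *Smad2* -0.02 and the median of the other superfamily genes 0.28. Leaving these libraries out of the ligand ratios and the genes named from the lists, and setting replicate 1 of each TAC group alone against sham, were chosen after seeing the data.

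The animal numbers of the labels fall into 2 series, which under TAC are the replicate numbers. Nothing in the labels ties a series to a litter or batch. The correlation of the replicate differences between Tg TAC and WT TAC was 0.53 over 17014 probes, from 2 pairs. With this replicate block the calls over all probes were 298 in Tg TAC against WT TAC, 6 in WT TAC against WT Sham, 347 in Tg TAC against Tg Sham, 177 in TAC against Sham and 731 in Tg against WT. In Tg TAC against WT TAC the block gave -0.66 ± 0.16 for *Tgfb1*, 0.50 ± 0.22 for *Tgfb2* and 0.71 ± 0.17 for *Tgfb3*. Their limma adjusted p was 0.067, 0.25 and 0.067, and 0.11, 0.28 and 0.11 with 1 probe per named gene. The block called 1 member, *Tgfb3* in Tg TAC against Tg Sham (1.42, limma adjusted p = 0.02). Under it TAC exceeded Sham by 1.03 for *Tgfb2* and 1.03 for *Tgfb3* (limma adjusted p = 0.067 and 0.076), and *Tgfb2* was 1.00 in WT TAC against WT Sham (adjusted p = 0.27) and 1.06 in Tg TAC against Tg Sham (adjusted p = 0.11). *Tgfb1* in WT TAC against WT Sham was 0.12 under the block, *Smad2* and *Smad3* in Tg TAC against Tg Sham were -0.02 and -0.01, and *Smad2* in TAC against Sham was -0.08. With the block and 1 probe per named gene, chosen after seeing the data, calls numbered 7, 0, 57, 93 and 422 in the same order, *Tgfb3* in Tg TAC against Tg Sham was again 1.42 but no longer called (adjusted p = 0.051), and the 4 reversed values were the same.

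Leaving out single arrays gave 0 to 2 calls over all probes in Tg TAC against WT TAC, 0 to 1 in WT TAC against WT Sham, in Tg TAC against Tg Sham and for the difference between the TAC responses, 0 to 4 in TAC against Sham and 0 to 14 in Tg against WT. A lone remaining array is assumed to vary as the other groups do. In Tg TAC against WT TAC *Tgfb2* ranged from -0.11 to 1.10, *Tgfbr1* from -0.52 to 0.21, *Tgfbr2* from -0.31 to 0.43 and *Tgfbr3* from -0.27 to 0.43. In WT TAC against WT Sham *Tgfb1* ranged from -0.33 to 0.10, *Tgfb3* from -0.13 to 0.59 and *Tgfbr2* from -0.18 to 0.49. In Tg TAC against Tg Sham *Tgfbr1* ranged from -0.29 to 0.43, *Tgfbr2* from -0.02 to 0.73, *Tgfbr3* from -0.02 to 0.68, *Smad2* from -0.07 to 0.20 and *Smad3* from -0.03 to 0.15. In TAC against Sham *Tgfbr1* ranged from -0.06 to 0.25 and *Smad2* from -0.06 to 0.06. In Tg against WT *Tgfbr1* ranged from -0.35 to 0.07, *Tgfbr2* from -0.24 to 0.19 and *Tgfbr3* from -0.10 to 0.30. For the difference between the TAC responses *Tgfb2* ranged from -0.55 to 0.66, *Tgfbr1* from -0.40 to 0.32, *Tgfbr2* from -0.17 to 0.57, *Tgfbr3* from -0.39 to 0.31 and *Smad2* from -0.02 to 0.25. The list of ligand storage and activation had medians from -0.07 to 0.41 in Tg TAC against WT TAC, from -0.08 to 0.44 in Tg TAC against Tg Sham and from -0.31 to 0.12 for the difference between the TAC responses. The other superfamily genes had medians from 0.06 to 0.24 in Tg TAC against WT TAC, 0.06 to 0.30 in WT TAC against WT Sham, 0.02 to 0.28 in Tg TAC against Tg Sham, 0.04 to 0.22 in Tg against WT and -0.12 to 0.24 for the difference between the TAC responses. The genes known to be induced by TGF-beta had medians from -0.06 to 1.04 in Tg TAC against Tg Sham and from -0.55 to 0.62 in Tg TAC against WT TAC, the lowest without Tg TAC replicate 1 and the highest without Tg TAC replicate 2.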

Other observations

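The named genes whose log2 intensities followed each ligand most closely over the 6 arrays differed between the ligands. For *Tgfb1* they were *Tceal8* (Pearson r 0.996), *Hspa12b* (0.993), *Ptpn21* (0.993), *Tead1* (0.992) and *Dcaf10* (0.990), and the most opposed were *Irf3* (-0.995), *Dgat1* (-0.994) and *Anapc2* (-0.989). For *Tgfb2* they were *Vps29* (0.996), *Pon2* (0.993), *Fxyd6* (0.989), *Tril* (0.988) and *Tmem98* (0.987). The most opposed to *Tgfb2* were *Ndufs4* (-0.994), a subunit of respiratory complex I, and *Mrps22* (-0.994) and *Mrps28* (-0.993), proteins of the mitochondrial ribosome. For *Tgfb3* they were *Mast4* (0.996), *Creb3l2* (0.995), *Plekha4* (0.995), *CYTB* (0.992) and *Itga1* (0.987), and the most opposed were *Atp5d* (-0.997), a subunit of ATP synthase, *Mrps33* (-0.993), also of the mitochondrial ribosome, and *Sdr39u1* (-0.989). These correlations describe 6 arrays that share the same normalization, were picked as extremes among 9577 genes, and carry no test.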
